A study of Mus musculus with 9 samples.

Results

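The 10 genes described here belong to the tumour necrosis factor (TNF) family system of CD4 T cells. They were chosen by name and comprise 7 receptors (Tnfrsf4, Tnfrsf9, Tnfrsf18, Tnfrsf1a, Tnfrsf1b, Cd27 and Fas), the ligands Tnfsf8 and Tnfsf11, and the adaptor Traf1. All 10 were found among the 23171 gene rows of the series, and all 10 passed the filter on low values. RNA was sequenced from CD4 T cells of lymph nodes and spleen of C57BL6 mice in 9 libraries, 3 each of naive, Hopx low and Hopx high cells. Hopx is an atypical homeodomain cofactor that lacks DNA binding of its own. The treatment label is the same for all 9 libraries, the naive ones included. It states that antibodies carrying antigen to dendritic cells were given 5 days before sorting, that T cells were restimulated by antigen-presenting cells for 12 h, and that they were sorted again. No allele, reporter or transgene is named in the labels, nor are the animals behind each replicate, so p-values measure the spread between these samples, which may be technical.

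TNF family receptors are membrane proteins that are clustered by trimeric ligands on neighbouring cells. Most costimulatory members recruit TRAF adaptors to short motifs in their cytoplasmic tails and so activate NF-κB and MAP kinases, while Fas and TNFR1 (Tnfrsf1a) carry death domains that can start apoptosis. In CD4 T cells, OX40 (Tnfrsf4), CD137 (Tnfrsf9) and GITR (Tnfrsf18) are known as receptors that are induced by antigen and are abundant on regulatory T cells. CD27 is already present on naive T cells and is lost on prolonged activation, and CD30 ligand (Tnfsf8) and RANKL (Tnfsf11) are ligands displayed by activated T cells.

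Of the 10 genes 5 lie on chromosome 4 of GRCm38, the assembly also called mm10. Tnfrsf4 occupies chr4:156013843-156016612 and Tnfrsf18 chr4:156026164-156028895, both on the plus strand, 9.551 kb apart with no other protein-coding gene between them in GENCODE M21. Tnfrsf9 lies at 150914562 to 150946102 on the plus strand of chromosome 4, and Tnfrsf1b at 145213463 to 145246870 and Tnfsf8 at 63831308 to 63861347 on its minus strand. Tnfrsf1a lies at 125349362 to 125362484 (plus strand) and Cd27 at 125232622 to 125237010 (minus strand) of chromosome 6. Fas is at 34290666 to 34327772 of chromosome 19 (plus strand), Tnfsf11 at 78277445 to 78308043 of chromosome 14 and Traf1 at 34941750 to 34961772 of chromosome 2, the last pair on the minus strand. All 10 are protein-coding. Exons of Tnfrsf18 share 414 bases with the antisense gene Gm16008, and without knowledge of how strand was used its coverage cannot be separated from that gene's. An annotated miRNA, Mir8113, lies within 129 exonic bases of Cd27, and the other 8 genes share no exonic base with another gene.

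The sequences before the transcription starts of Tnfrsf4 and Tnfrsf18 are shown because these neighbours were the members called between groups. The second RefSeq start of Tnfrsf9 is shown because, among 11 start sites of the 10 genes, it was the one whose 250 upstream bases held a match to the NF-κB consensus. The sequences are from RefSeq (GRCm38.p6), on the gene's strand, 5′ to 3′, and end at the base before the start. They span chr4:156013445-156013694, chr4:156026072-156026321 and chr4:150927749-150927998. The Tnfrsf18 sequence in part, and the Tnfrsf9 sequence as a whole, lie inside the GENCODE spans given above. These sequences are thus upstream of the RefSeq start used, but not of every annotated transcript of the gene. Capitals mark motif matches on either strand.
Tnfrsf4: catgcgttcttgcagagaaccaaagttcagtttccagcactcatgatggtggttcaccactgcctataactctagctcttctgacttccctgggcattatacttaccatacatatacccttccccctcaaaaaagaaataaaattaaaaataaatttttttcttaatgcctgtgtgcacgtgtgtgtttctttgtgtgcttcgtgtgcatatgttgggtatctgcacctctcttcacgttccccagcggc
Tnfrsf18: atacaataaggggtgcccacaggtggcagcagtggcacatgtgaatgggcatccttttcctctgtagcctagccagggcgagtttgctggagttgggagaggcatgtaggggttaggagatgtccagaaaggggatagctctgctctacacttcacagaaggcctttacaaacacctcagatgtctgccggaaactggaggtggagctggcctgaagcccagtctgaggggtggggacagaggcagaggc
Tnfrsf9: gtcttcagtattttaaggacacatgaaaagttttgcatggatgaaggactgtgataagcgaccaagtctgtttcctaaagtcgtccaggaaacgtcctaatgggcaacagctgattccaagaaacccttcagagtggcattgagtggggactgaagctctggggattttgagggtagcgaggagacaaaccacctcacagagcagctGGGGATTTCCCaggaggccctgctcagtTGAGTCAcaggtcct
In Tnfrsf9, 2 overlapping matches to the NF-κB consensus began 43 and 42 bases before the start, and an AP-1 match (TGANTCA) covered bases 15 to 9 before it. The NF-κB consensus was found in 3.9% and TGANTCA in 6.75% of the same windows of 32851 RefSeq starts. The Fas window held a TGANTCA match 211 bases before the start, and the other 9 windows, including those of Tnfrsf4 and Tnfrsf18, held neither motif. A match is a match of letters, and its absence says nothing about either factor.

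Values are bases per megabase (Mb), the summed base coverage of a gene for each Mb of summed coverage in its library. Summed coverage was 63.3 to 289 Mb in naive, 330 to 442 Mb in Hopx low and 203 to 800 Mb in Hopx high, and a read of an assumed 100 bases is worth 0.125 to 1.58 bases per Mb. Naive replicates 1 and 2 are described as 1A and 1B and were closer to each other than other libraries of a group, so they were averaged and naive has n = 2. Naive replicate 3 was unlike them, with a median ratio of 1.86 to their mean over 9730 genes. Gas5, a host gene of small nucleolar RNAs, took 40.0% and 29.1% of the coverage of naive replicates 1 and 2 and 1.16% to 21.3% in the other libraries, which lowers all other values there. An alternative with library totals that leave out Gas5, added after the data were seen, is given where it bears on a call. The naive and Hopx libraries also differ in sex-linked rows: Xist was at 76.1 to 263 in the naive libraries and no higher than 0.400 in any Hopx library, and 4 Y-linked genes summed to at most 0.300 in naive and 95.1 to 240 in the Hopx libraries. This difference and the groups cannot be told apart. The 8 T cell markers were present in every group, with Cd4 at 101 to 501 bases per Mb, whereas of the CD8 genes Cd8a was at most 0.362 and Cd8b1 was at 14.8 to 31.1 in all 9 libraries. The T cell markers summed to 1214 to 2018 in naive, 2712 to 3616 in Hopx low and 1728 to 3671 in Hopx high. The transcript Hopx itself was listed at 0, 0 and 1.64 bases per Mb in naive, and had 3.32, 6.90 and 3.29 in Hopx low and 8.95, 7.79 and 4.89 in Hopx high, so the Hopx groups overlapped in the RNA that names them. The 7 B cell markers summed to 13.4 to 36.2 in naive, 20.1 to 25.3 in Hopx low and 2.81 to 8.45 in Hopx high, and the monocyte and dendritic cell lists never exceeded 7.26, with Xcr1, Siglech and Clec9a at 0. The part of B cell carryover in the differences below was not tested. In bulk RNA, a smaller share of cells of a type and less RNA per cell cannot be told apart.

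Compared per kilobase of annotated exon, the ranking of the receptors differed between the groups. In naive, Cd27 had the highest mean level per length, 130 ± 53.8 bases per Mb per kb (SD, n = 2), followed by Tnfrsf9 at 60.7 ± 39.3 and Tnfrsf1b at 59.4 ± 12.8. Tnfrsf18, Tnfrsf1a, Tnfrsf4 and Traf1 followed at 25.0 to 21.4, and Fas, Tnfsf8 and Tnfsf11 were lowest at 11.7 to 6.18. In Hopx low, Tnfrsf9 led with 164 ± 46.0 per kb (n = 3), then Tnfrsf4 with 128 ± 38.0, Tnfrsf18 with 116 ± 43.2 and Cd27 with 106 ± 34.6. In Hopx high, Tnfrsf4 led with 259 ± 158 per kb, then Tnfrsf18 with 158 ± 58.6 and Tnfrsf9 with 118 ± 38.8, followed by Cd27 at 56.4 ± 17.2 and Tnfrsf1b at 42.6 ± 12.7. Neighbours in these orders differed by less than the larger of their SDs, with exceptions in each group. In naive these were the steps from Cd27 to Tnfrsf9 and from Tnfrsf1b to Tnfrsf18. In Hopx low they were the steps from Tnfrsf1b to Tnfrsf1a and from Traf1 to Tnfsf11, and in Hopx high those from Tnfrsf9 to Cd27, Tnfrsf1b to Tnfsf11 and Tnfrsf1a to Fas. The labels do not state whether the authors' coverage includes introns, so exon length is an approximate divisor.

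**Figure D1:**
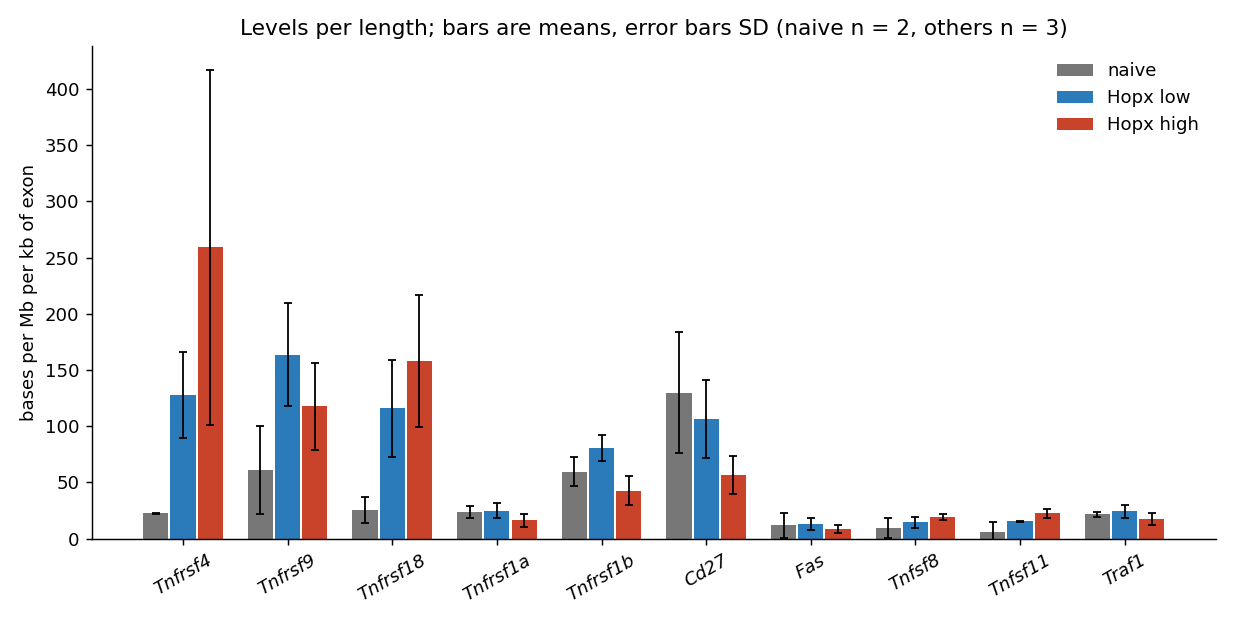
Mean level per exon length (bases per Mb per kb, linear axis from 0) of the 10 genes in naive (grey, n = 2), Hopx low (blue, n = 3) and Hopx high (red, n = 3), with SD as error bars. Cd27 is the highest bar in naive at 130, Tnfrsf9 in Hopx low at 164 and Tnfrsf4 in Hopx high at 259.

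Against naive, Tnfrsf4 and Tnfrsf18 rose in Hopx high cells, 10.04-fold and 6.21-fold on the log2(value + 1) scale, and no member fell past the test. In this comparison 2 of 10 members were called, both higher, where 3.3% of the 10825 genes tested were called higher, 0.499% lower and 3.8% in either direction. The groups did not overlap for 5 members, 4 higher and 1 lower, where this held for 14.2% and 7.68% of genes, or 21.9% in either direction. With library totals that leave out Gas5, Tnfrsf1a and Tnfrsf1b were also lower without overlap. The share of all genes without overlap was not computed for those totals. The comparison asks how Hopx high cells differ from naive cells after restimulation, and it rests on the unlike naive samples. Foxp3, the defining transcription factor of regulatory T cells, was listed at 0, 0 and 0.509 bases per Mb in naive, and had 4.47, 2.49 and 4.68 in Hopx low and 8.29, 3.61 and 4.71 in Hopx high. It was called higher in Hopx high than in naive (log2 difference 2.35 ± 0.62, adjusted p = 0.0391), and its part in the members' differences was not tested. Tests are limma on log2(bases per Mb + 1) with all groups in 1 fit, adjusted over all genes by Benjamini-Hochberg with a threshold of 0.05. The median log2 difference of all genes was 0.15, that of the 10 members 0.46 and that of the 8 T cell markers 0.59, of which Thy1 was called higher (adjusted p = 0.0472). The part of T cell marker levels in the members' differences was not tested. With library totals that leave out Gas5 the median of all genes was -0.01, 406 genes were higher and 129 lower (357 and 54 with Gas5), and the called members were again Tnfrsf4 (3.14, adjusted p = 0.00137) and Tnfrsf18 (2.47, adjusted p = 0.00480).

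Tnfrsf4 encodes OX40, which prolongs the survival of activated T cells. In naive replicates 1, 2 and 3 the coverage was 33.3, 28.4 and 30.1 bases per Mb, followed by 222, 119 and 182 in Hopx low, and 599, 267 and 195 in Hopx high. All 6 Hopx libraries lay above all naive libraries, the Hopx groups overlapped, and Hopx high replicate 1 stood well above the rest. Hopx high exceeded naive by a log2 difference of 3.33 ± 0.52 (SE; adjusted p = 0.000787), and by 2.87 without Hopx high replicate 1 (adjusted p = 0.0139). For Hopx low the log2 difference from naive was 2.43 ± 0.52 (adjusted p = 0.0526), which did not pass.

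Tnfrsf18 encodes GITR, a costimulatory receptor best known from regulatory T cells. Naive had 19.1, 32.4 and 50.6 bases per Mb, against 231, 103 and 195 in Hopx low, and 341, 211 and 169 in Hopx high. As for Tnfrsf4, every Hopx library exceeded every naive library and the Hopx groups overlapped. The log2 difference of Hopx high from naive was 2.64 ± 0.52 (adjusted p = 0.00549). Without Hopx high replicate 1 it was 2.35 and no longer passed (adjusted p = 0.0554). Hopx low differed from naive by 2.18 ± 0.52 and did not pass (adjusted p = 0.0858).

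Tnfrsf9 encodes CD137, which is induced by antigen receptor signals. Values were 81.6, 97.8 and 241 bases per Mb (naive), then 400, 349 and 587 in Hopx low and 401, 358 and 200 in Hopx high. Hopx low lay above naive in every library, whereas the lowest Hopx high library was below naive replicate 3. The log2 difference from naive was 1.05 ± 0.52 in Hopx high (adjusted p = 0.342) and 1.56 ± 0.52 in Hopx low (adjusted p = 0.291), and neither passed. Without naive replicate 3 these became 1.76 (adjusted p = 0.0237) and 2.26 (adjusted p = 0.00447). In that setting naive is the averaged sample alone, which is assumed to vary like the Hopx groups, and 2465 of 10801 genes were called higher in Hopx high and 2690 in Hopx low, against 357 and 32 of 10825 with all libraries.

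**Figure D2:**
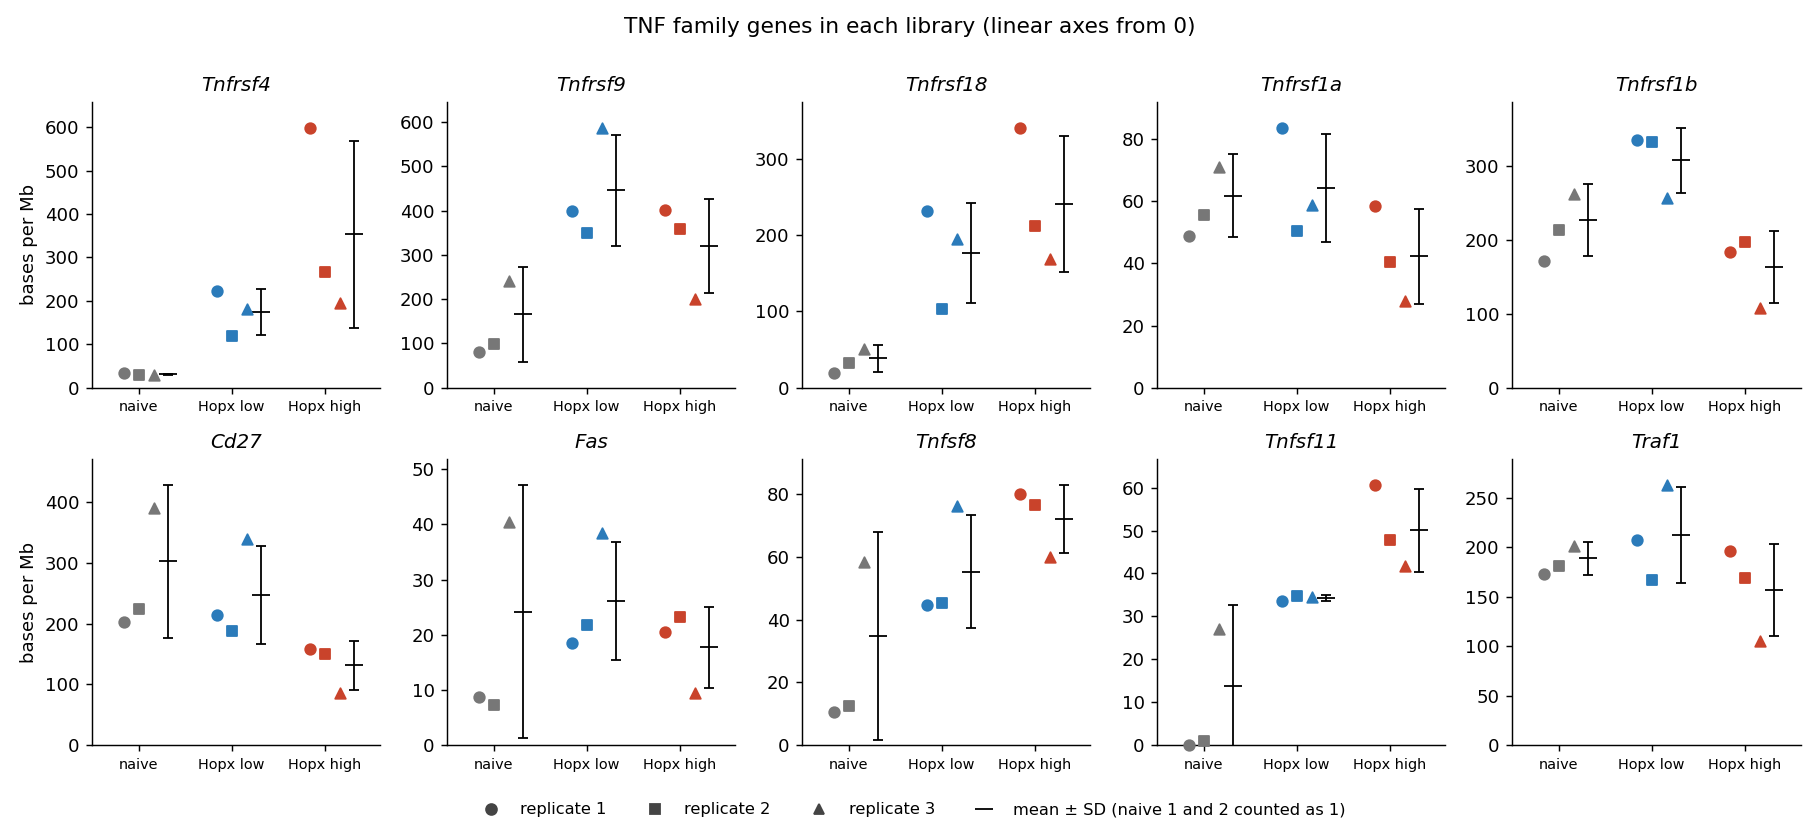
Coverage of each of the 10 genes (bases per Mb, linear axes from 0) in the 9 libraries, with 1 point per library, the shape giving the replicate number, and bars for the mean and SD with naive 1 and 2 counted as 1 sample (a bar reaching below 0 is drawn to 0). Tnfrsf4 and Tnfrsf18 are low in all naive libraries, at most 33.3 and 50.6, and Cd27 is lowest in Hopx high, at 85.4 to 158.

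The ligands were also low in naive replicates 1 and 2, as many genes were. All Hopx libraries lay above naive replicates 1 and 2 for 6 of 10 members and for 44.7% of genes tested. Naive replicate 3 lay above naive replicates 1 and 2 for 9 of 10 members and for 69.8% of genes. Tnfsf11, which encodes RANKL, a ligand that activates dendritic cells and drives osteoclast formation, was listed at 0 in naive replicate 1 and had 1.04 and 27.1 bases per Mb in replicates 2 and 3. It had 33.5, 34.8 and 34.6 in Hopx low and 60.6, 47.8 and 41.7 in Hopx high, so that the 3 groups did not overlap and were ordered naive, Hopx low, Hopx high. The Hopx low libraries were nearly equal, with an SD of 0.683 around 34.3. From naive, the log2 difference was 2.95 ± 0.83 in Hopx high (adjusted p = 0.0532) and 2.43 ± 0.83 in Hopx low (adjusted p = 0.313), and neither passed. Its naive value rests on 1 library: without naive replicate 3 the log2 difference of Hopx high was 5.05 (adjusted p = 1.5e-07) and that of Hopx low 4.54 (adjusted p = 1.64e-06), with the spread estimated in the Hopx groups only. Hopx high was also called with naive 1 and 2 kept apart, by itself with naive, without Hopx low replicate 3, with median-gene scaling and with quantile normalization (adjusted p = 0.0113 to 0.0361). Under the remaining alternatives it did not pass, with an adjusted p of up to 0.243.

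Tnfsf8 encodes the ligand of CD30. Naive libraries showed 10.6, 12.4 and 58.3 bases per Mb, compared with 44.6, 45.2 and 76.0 in Hopx low and 79.8, 76.4 and 59.8 in Hopx high. Hopx high lay above naive in every library, by a narrow margin over naive replicate 3. The log2 difference was 1.41 ± 0.61 for Hopx high (adjusted p = 0.248) and 1.00 ± 0.61 for Hopx low (adjusted p = 0.679), and neither passed. Without naive replicate 3, the setting that called 2465 and 2690 genes higher, they were 2.54 (adjusted p = 0.000925) and 2.13 (adjusted p = 0.00466).

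In the remaining members no difference from naive passed. Cd27, a receptor for CD70 that sustains naive and memory T cells, was at 202, 224 and 391 bases per Mb (naive), 215, 188 and 339 in Hopx low and 158, 150 and 85.4 in Hopx high. Every Hopx high library lay below every naive and every Hopx low library, as it did below naive for 7.68% and below Hopx low for 9.98% of genes. The log2 difference of Hopx high from naive was -1.18 ± 0.49 (adjusted p = 0.230).

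Tnfrsf1a and Tnfrsf1b encode TNFR1 and TNFR2, the receptors of soluble and of membrane-bound TNF. Tnfrsf1a ranged from 48.8 to 71.2 bases per Mb in naive, 50.5 to 83.7 in Hopx low and 27.9 to 58.3 in Hopx high. Tnfrsf1b had 171, 214 and 262 in naive, 334, 332 and 257 in Hopx low and 184, 197 and 107 in Hopx high. The naive range of both overlapped with that of each Hopx group, and their log2 differences from naive lay between -0.58 and 0.44 (adjusted p = 0.691 to 0.990). The overlap with Hopx high depended on Gas5. With library totals that leave out Gas5, Tnfrsf1a had 81.3, 78.6 and 75.4 in naive above 59.0, 51.6 and 30.2 in Hopx high. Tnfrsf1b had 284, 302 and 277 in naive above 186, 250 and 116 in Hopx high. Both still overlapped between naive and Hopx low, and no alternative called either gene. Fas, the death receptor that limits repeatedly activated T cells, had 8.76, 7.28 and 40.4 in naive, 18.5, 21.7 and 38.4 in Hopx low and 20.6, 23.2 and 9.42 in Hopx high. Its highest value was in naive replicate 3 and its lowest in naive replicate 2, and its log2 difference from naive was -0.14 ± 0.70 in Hopx high and 0.42 ± 0.70 in Hopx low. Traf1, an adaptor that binds TNFR2 and CD137 with TRAF2 and is itself an NF-κB target, was at 173 to 201 bases per Mb (naive), 167 to 263 in Hopx low and 106 to 196 in Hopx high. Its log2 difference was -0.31 in Hopx high (95% interval -1.29 to 0.67) and 0.15 in Hopx low (-0.83 to 1.12).

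In Hopx low against naive 0 of 10 members were called, where 0.305% of all genes were, 0.296% higher and 0.00924% lower. Groups did not overlap for 4 members, all higher, where 17.1% of genes were higher and 2.36% lower, or 19.4% in either direction. At an unadjusted p under 0.05 there were 4 members, Tnfrsf4, Tnfrsf9, Tnfrsf18 and Tnfsf11, all higher, where 8.52% of genes had such a p and 8.06% were higher. Limma without a variance trend also called 0. The median log2 difference of the members was 0.72 against 0.38 for all genes and 0.88 for the 8 T cell markers, of which all 8 were positive and none was called. Both comparisons with naive share the naive libraries, so their values are not independent. Without naive replicate 3, 5 members were called higher in each comparison: Tnfrsf4, Tnfrsf9, Tnfrsf18, Tnfsf8 and Tnfsf11. In the same setting 2465 genes were called higher and 241 lower in Hopx high, and 2690 higher and 83 lower in Hopx low, of 10801 tested. Naive replicate 3 had 5.04 and 5.08 times the mean of naive 1 and 2 for Fas and Tnfsf8, but 0.978 times for Tnfrsf4 and 1.14 times for Traf1. For Tnfsf11 no ratio is given, since naive 1 and 2 held less than 1 assumed read each.

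**Figure D3:**
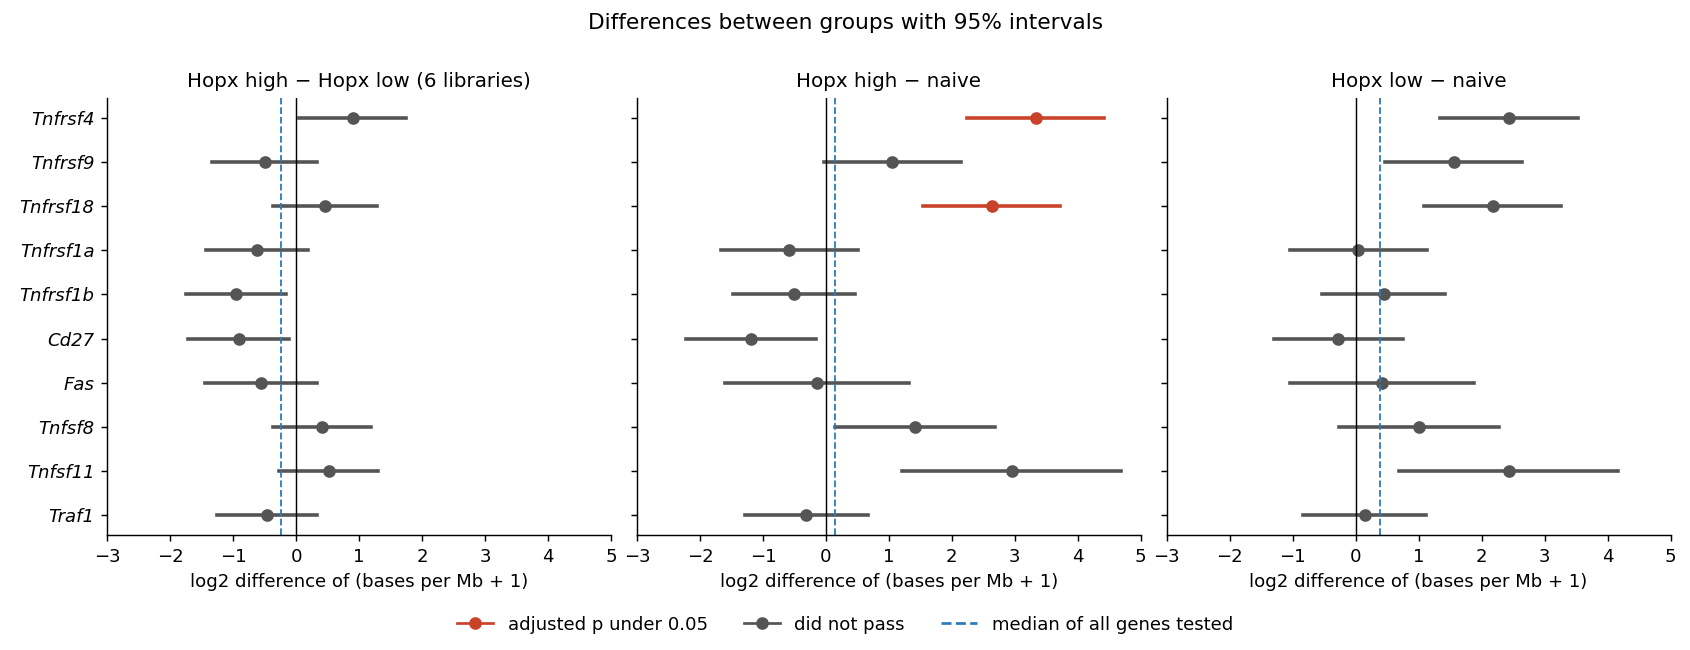
Log2 differences of the 10 genes with 95% intervals, for Hopx high minus Hopx low in the 6 Hopx libraries, Hopx high minus naive and Hopx low minus naive. Red marks the called pair, Tnfrsf4 at 3.33 and Tnfrsf18 at 2.64 against naive, and the dashed lines are the medians of all genes at -0.25, 0.15 and 0.38.

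Between Hopx high and Hopx low, the comparison of restimulated cells sorted by Hopx level, no member passed. With all 9 libraries in the fit, 0 of 10 members and 0% of genes were called, and 1 member, Tnfrsf1b, had an unadjusted p under 0.05, where 4.5% of genes did, 2.07% higher and 2.43% lower. With the 6 Hopx libraries alone, 0 of 10 were called against 0.636% of 10846 genes. There 3 members had an unadjusted p under 0.05, Tnfrsf1b and Cd27 lower and Tnfrsf4 higher, where 9.77% of genes did, 3.31% higher and 6.46% lower. Limma without a variance trend called 0 members in both fits. The log2 differences are the same in both fits, and the values below are from the 6 libraries. All genes had a median of -0.25, and the members had a median of -0.48.

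Tnfrsf1b showed 184, 197 and 107 bases per Mb in Hopx high below 334, 332 and 257 in Hopx low, with no overlap, and was lower in 3 of 3 pairs of the same number. Its log2 difference was -0.95 ± 0.39 (adjusted p = 0.394), or -0.71 relative to the median gene. Cd27 was lower in 3 of 3 pairs as well, with a log2 difference of -0.91 ± 0.40 (adjusted p = 0.441), or -0.66 relative to the median gene. In the pair numbered 3 the Hopx high library had 0.252 times the Cd27 level of the Hopx low library, against 0.738 and 0.799 times in the other pairs. Tnfrsf1a was lower in 3 of 3 pairs too (-0.62 ± 0.40), though its groups overlapped. Being lower in 3 of 3 pairs was common, at 27.1% of all genes, and being higher in 3 of 3 pairs applied to 11.8%.

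Tnfrsf4 and Tnfsf11 were higher in Hopx high in 3 of 3 pairs. For Tnfrsf4 the ratios within pairs were 2.70, 2.24 and 1.08, and the log2 difference of 0.90 ± 0.42 (adjusted p = 0.481) became 0.43 without Hopx high replicate 1 and 1.24 without Hopx high replicate 3. For Tnfsf11 they were 1.81, 1.38 and 1.20, with no overlap of the groups and a log2 difference of 0.52 ± 0.39 (adjusted p = 0.664). In all, 3 members had groups that did not overlap, where 14.5% of genes did, 4.55% higher and 9.98% lower. Tnfrsf18 (0.46 ± 0.41) and Tnfsf8 (0.41 ± 0.39) were higher in 2 of 3 pairs, and Tnfrsf9 (-0.50 ± 0.41), Fas (-0.56 ± 0.44) and Traf1 (-0.46 ± 0.39) had overlapping groups. For Tnfrsf9 and Fas, too, Hopx high was higher in 2 of 3 pairs, and their negative differences rest on the pair numbered 3. Without Hopx high replicate 3 they were -0.20 for Tnfrsf9, -0.18 for Fas and -0.20 for Traf1. The difference of Tnfrsf18 was 0.12 when Hopx low replicate 2 was left out and 0.18 when Hopx high replicate 1 was. The 95% interval was -0.37 to 1.28 for Tnfrsf18, -0.37 to 1.19 for Tnfsf8, -1.34 to 0.34 for Tnfrsf9, -1.45 to 0.33 for Fas and -1.25 to 0.33 for Traf1. Each thus includes a 2-fold difference in the direction of its estimate and none in the other direction. Hopx high replicate 3 was the lowest Hopx high library for all 10 members, as it was for 65.1% of genes.

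By profile over the 8 samples, the member most like Tnfrsf4 was its neighbour Tnfrsf18 and the reverse, with a root mean square difference of 0.41 between their centred log2 values. Genes outside the members, a far larger pool, came closer: Uhrf1 was 0.17 from Tnfrsf4 and Ccr8 0.21 from Tnfrsf18. Every member had a nearer gene outside the members than among them. Tnfrsf1a and Traf1 were closest of all members at 0.26, followed by Tnfrsf1b with Tnfrsf1a at 0.30 and Cd27 with Traf1 at 0.39. Tnfsf11 was the farthest from any other member, 0.84 from Tnfsf8. Among 9028 other genes, the mean profile of Tnfrsf4, Tnfrsf9, Tnfrsf18, Tnfrsf1b and Cd27 was closest to those of Poldip2, Tmco4, Chchd1, Gys1 and Dtnbp1 (each 0.17). In Hopx high against naive the differences of Tnfrsf4, Tnfrsf9 and Tnfrsf18 were positive and those of Tnfrsf1b and Cd27 negative. Their mean, which leaves out Tnfrsf1a and Fas, is thus not the profile of any single receptor. The values of all genes in a library share its depth and scaling, and these distances carry no test.

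The partners of the members were present at very different levels. Cd70, the ligand of CD27, was listed at 0 in all 3 naive libraries, had 4.05, 0.676 and 0.398 bases per Mb in Hopx low, and 14.2, 9.89 and 11.6 in Hopx high. Cd27 had its lowest values in Hopx high, but it overlapped between naive and Hopx low, and its differences did not pass. The Cd70 groups did not overlap. Among all genes, 17.1% had Hopx low above naive without overlap and 4.55% had Hopx high above Hopx low. The Hopx low values of 0.676 and 0.398 are less than 1 assumed read in naive replicates 1 and 2 (1.58 and 1.16 bases per Mb), so these naive libraries could not resolve them. In the 6 Hopx libraries Cd70 was called higher in Hopx high (log2 difference 2.49 ± 0.51, adjusted p = 0.0123), and it was higher than naive (adjusted p = 0.00231). No fold is given against naive, and the fitted differences depend on the pseudocount, being 3.34 between the Hopx groups with 0.1. The call between the Hopx groups was lost without Hopx low replicate 3 (adjusted p = 0.159), Hopx high replicate 1 (adjusted p = 0.0647) or Hopx high replicate 3 (adjusted p = 0.119), with no filter on low values (adjusted p = 0.374) and with the values as deposited (adjusted p = 0.0664). In the fit to all 9 libraries it did not pass (adjusted p = 0.340).

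**Figure D4:**
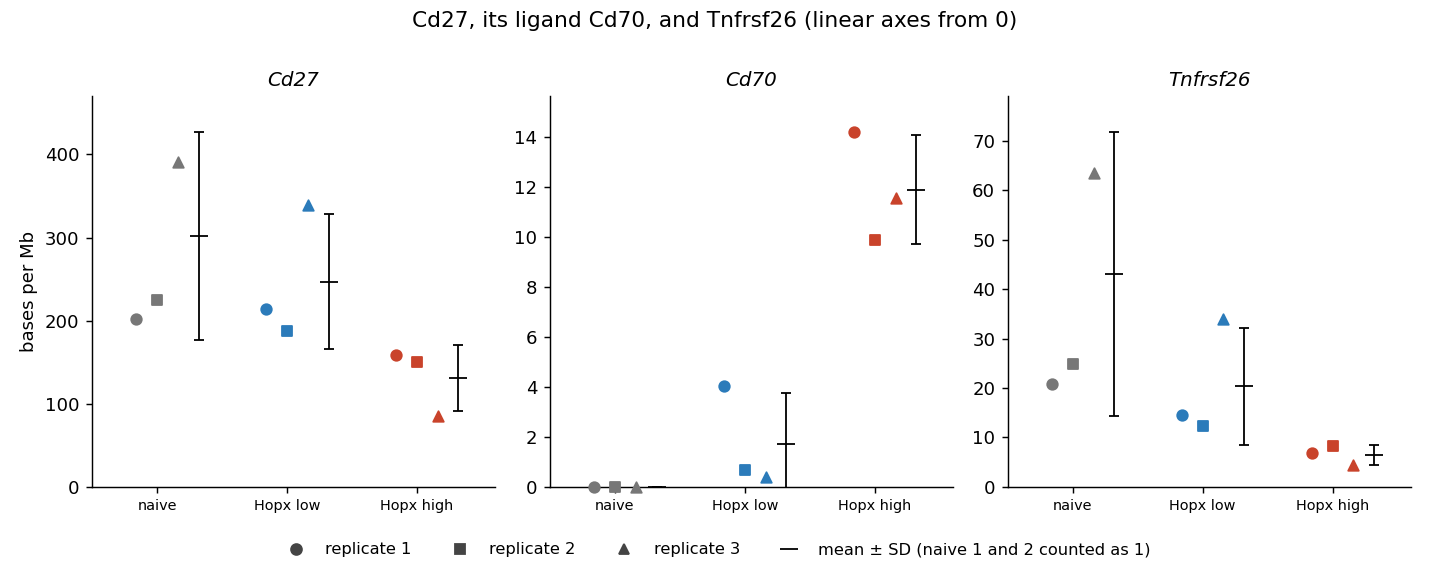
Coverage of Cd27, of its ligand Cd70 and of Tnfrsf26 (bases per Mb, linear axes from 0) by library, with 1 point per library and bars for mean and SD (naive n = 2, Hopx groups n = 3, bars cut at 0). Cd70 is listed at 0 in naive and reaches 9.89 to 14.2 in Hopx high, where Cd27 and Tnfrsf26 have their lowest values.

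TNF, which binds TNFR1 and TNFR2, was transcribed in all groups, with 152 to 261 bases per Mb in naive, 147 to 230 in Hopx low and 83.1 to 230 in Hopx high. Lta, encoding lymphotoxin alpha, had 25.2 to 31.8 in naive, below 52.8 to 97.7 in Hopx low and 54.9 to 138 in Hopx high, but its log2 difference from naive did not pass in Hopx high (1.59 ± 0.54, adjusted p = 0.120). Fasl was at 4.64, 6.69 and 35.4 in naive, 14.5, 14.1 and 44.6 in Hopx low and 10.97, 10.1 and 11.03 in Hopx high. The OX40 ligand gene Tnfsf4 had 2.70 to 42.0 bases per Mb and the CD137 ligand gene Tnfsf9 0.634 to 6.07 over all libraries, and the GITR ligand gene Tnfsf18 was listed at 0 in all 9. The receptors of the member ligands were barely covered, with Tnfrsf8 (CD30) at most 0.825 and Tnfrsf11a (RANK) at most 0.484. These genes were named as known partners of the members, with earlier results of these data known.

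Of the wider family, 21 other receptors, 16 other ligands and 19 adaptors and regulators were listed. The filter left 13, 10 and 19 of them. Against naive, Hopx high had 1 of 13 receptors lower (Tnfrsf26), 1 of 10 ligands higher (Cd70) and 0 of 19 adaptors called. Hopx low had 0 in each list. Between the Hopx groups, Cd70 was the only gene called, in the 6-library fit. Tnfrsf26, a mouse TNF receptor family gene whose neighbours Tnfrsf22 and Tnfrsf23 are related copies, was at 20.8, 24.8 and 63.4 bases per Mb (naive), 14.6, 12.4 and 33.96 in Hopx low and 6.82, 8.31 and 4.36 in Hopx high. All Hopx high libraries were below all others, with a log2 difference from naive of -2.42 ± 0.67 (adjusted p = 0.0488). The call was marginal and was lost under several alternatives, among them leaving out naive replicate 2 or any 1 of the Hopx libraries (adjusted p = 0.0532 to 0.172), and how the authors shared coverage between related copies is unstated in the labels. Its exons also share 107 bases with the antisense gene E230032D23Rik, whose reads cannot be told apart from its own without strand. The adaptors had a median log2 difference from naive of -0.27 in Hopx high and 0.17 in Hopx low, against 0.15 and 0.38 for all genes.

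In the authors' deposited table, whose unadjusted p-values are on linear values with the naive libraries kept apart, Tnfsf11 was the member with a p under 0.05 in all 3 comparisons (0.0178 for Hopx high against naive, 0.0486 for Hopx low against naive and 0.0476 between Hopx groups). Tnfrsf4 had ratios of 11.6 for Hopx high against naive and 5.69 for Hopx low against naive in the authors' deposited table, with p-values of 0.0602 and 0.00872 there. Tnfrsf1b had a ratio of 0.529 between Hopx high and Hopx low at p = 0.0184 in the authors' deposited table. There 2, 4 and 2 of the 10 members had a p under 0.05 for Hopx high against naive, Hopx low against naive and Hopx high against Hopx low, where 7.05%, 6.32% and 3.82% of all 23171 rows did. Those rows include genes without coverage, which the filter on low values removed from the other shares given here. The members all passed that filter, so these shares are not a like background for them.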

How the data were processed

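Coverage of 9 rRNA-depleted Ion Total RNA libraries, prepared as the labels' protocols state, was analysed. The authors deposited 1 table that holds, for each gene, a coverage signal by library, group means, fold ratios and p-values. Per the submitters' processing notes, bedtools and mm10 were used. The aligner, annotation and use of strand were not given in the sources used here. Tested on the values, the deposited signal is a gene's covered bases with 1 base added, scaled from its library's total to the mean total of 333 Mb. Base counts so recovered were whole in 100% of values within 1e-06. The added base was removed and values set to bases per Mb.

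Naive 1 and 2 (1A and 1B in their descriptions) were averaged. Assuming reads of 100 bases, their median chi-square ratio was 2.26, and 8.87 to 20.9 in the other pairs within groups. The filter kept genes whose mean reached 1 base per Mb, and the test was limma 3.58.1 (R 4.3.3) with a variance trend, on log2(value + 1), which understates changes of low genes. Intervals are 95%. The fit was checked on simulated data with known changes. The simulation gave all genes and samples the same SD and held no unlike naive sample. It therefore does not show how the fit behaves with these naive libraries. The members, lists and tests were chosen with earlier results of these data known. Named genes were all members, called genes of the wider family list and nearest profiles, and outside that rule the ligands and receptors that are known partners of members, marker genes and Gas5. Hopx samples of the same number deviated together (r = 0.447, 0.425 and 0.171 over 7728 genes), so they were described as pairs by number. The main fits took no account of these pairs, so their SEs, intervals and p-values are unpaired. The pairs entered a fit only as the replicate block, an alternative. The labels name no pairs. The correlation of deviations was not computed for samples with different numbers, so it is unknown whether the same number stands out. In log2 levels, Hopx low replicates 1 and 2 were closest to the Hopx high replicate of their number (r = 0.950 and 0.945). Hopx low replicate 3 was less like Hopx high replicate 3 (0.844) than replicates 1 and 2 (0.873 and 0.898). Naive has only 2 numbers. Deviations of its samples from their group mean correlated with those of Hopx low at 0.660 and 0.607, and with those of Hopx high at 0.286 and 0.0837. With 2 samples the naive deviations mirror each other, so these values are not independent. Since the rule used here needs at least 3 pairs, all over 0.1, naive was not described as paired. The replicate block still numbered the naive samples 1 and 3, as it did the Hopx samples of those numbers. Alternatives were leave-one-out fits, a replicate block, other scaling, pseudocounts, filters and sample sets, no trend, the added base kept and, added after the data were seen, library totals without Gas5. Python 3.11.15, pandas 2.3.3 and matplotlib 3.10.9 prepared tables and figures.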

Additional observations from a re-analysis of the deposited data

How the results depend on the processing

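Between Hopx high and Hopx low, 0 members were called under each of 15 alternatives in the 6-library fit and 19 in the fit to all groups, leave-one-out fits included, and no member changed direction in either. The replicate block also covered the naive samples, numbered 1 and 3. With it the numbers of members called were 0 and 0 between the Hopx groups, 2 in Hopx high against naive and 0 in Hopx low against naive. The block changed no call of a member. Leaving out 1 replicate at a time gave 1 to 5 members called in Hopx high against naive and 0 to 5 in Hopx low against naive, with 5 in each case without naive replicate 3 (where 2465 and 2690 of 10801 genes were called higher) and 1, Tnfrsf4, without Hopx high replicate 1. For Hopx low against naive, 2 members (Tnfrsf4 and Tnfrsf18) were called with quantile normalization and 2 with naive 1 and 2 as separate samples. Small differences from naive that had not passed changed sign. For Hopx high, Fas became 0.23 with naive 1 and 2 as separate samples and ran from -0.37 to 0.96 when replicates were left out. For Hopx low, Tnfrsf1a became -0.32 and Traf1 -0.22 with median-gene scaling, and with quantile normalization Tnfrsf1a became -0.21, Traf1 -0.050 and Fas -0.0073. With totals without Gas5, Tnfrsf1a became -0.15 and Traf1 -0.055. Leaving out replicates gave Tnfrsf1a -0.16 to 0.26, Traf1 -0.018 to 0.31 and Cd27 -0.52 to 0.16. The cause was not tested. Over all genes, Hopx high against naive gave 357 higher and 54 lower, but 536 and 184 with median-gene scaling and 457 and 269 with quantile normalization, 406 and 129 with totals without Gas5, and 2465 and 241 without naive replicate 3. The shallow naive libraries (63.3 and 86.5 Mb) limit low genes such as Tnfsf11, Fas and Cd70.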
